A study of Bos taurus with 13 samples.

Results

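Interferons are signalling proteins, released for example when a cell senses viral nucleic acid. They switch on a common set of antiviral genes in the cells that receive them. The 13 blood samples of dairy cows analysed here differed in how strongly this set was expressed. Each cow was given an interferon score, the mean over *ISG15*, *IFI6*, *OAS2* and *IFI44* of log2(CPM + 1), where CPM is the count of a gene per 1000000 counts on named genes. The 5 cows with the highest score, here the interferon-high cows, were compared with the other 8, whatever their milk cortisol label. All 13 cows carried the breed label Italian Red Pied and the labels give no treatment and no age. Whole blood was drawn from the tail vein into PAXgene tubes, which preserve RNA at sampling, and RNA was sequenced without globin depletion. The cows were chosen from the tails of milk cortisol concentration, 7 with the label high cortisol (replicates 1 to 7) and 6 with the label low cortisol (replicates 8 to 13). Replicate 5 of the high group and replicates 12, 8, 13 and 10 of the low group formed the interferon-high class, and values of these 5 cows are given below in this order, that of their scores.

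Type I interferons bind the receptor chains IFNAR1 and IFNAR2, and the kinases JAK1 and TYK2 then phosphorylate factors such as STAT2. With IRF9 these form a complex that binds interferon-stimulated response elements. The genes it induces include sensors of viral RNA, enzymes that degrade or edit RNA or block translation, the ubiquitin-like protein ISG15 with the enzymes that attach it, and IRF7, which amplifies interferon production. In blood most leukocytes carry the receptor and express these genes, so their level in whole blood is a common measure of exposure to interferon.

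The scores of the interferon-high cows were 7.72, 7.72, 7.32, 6.52 and 6.50, and those of the other cows were between 4.74 and 5.75. The gap at the threshold was 0.755, between replicate 10 of the low group (6.50) and replicate 11 of the low group (5.75). A gap of 0.805 lay within the class itself, between replicates 8 and 13 of the low group. *ISG15* was between 294 and 990.0 CPM in the interferon-high cows and between 44.5 and 191 CPM in the others, while *IFI44* overlapped, at 27.3 to 82.3 CPM against 15.4 to 34.6 CPM. All other CPM are scaled by TMM factors as well. These 4 genes chose the classes, so their values are a description and they were left out of every count that follows. The class held 1 of 7 cows of the high group and 4 of 6 cows of the low group. The score did not use the cortisol label, and this split of the labels is given as a description.

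Named-gene totals ran from 11045599 to 28124575 counts in the interferon-high cows and from 12198355 to 26529458 in the others. A gene without counts may thus still be at 3 counts, or 0.107 to 0.272 CPM depending on the cow, from counting error alone. The 4 haemoglobin genes named in the tables, *HBB*, *HBG*, *HBM* and *HBQ1*, took 0.0114% to 0.262% of counts in the interferon-high cows and 0.0282% to 0.815% in the others. The highest share of each class was in replicate 5 and replicate 7 of the high group. The alpha chain entries *HBA* and *HBA1* were not analysed here, so the share is a lower bound on haemoglobin RNA.

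Of 11130 genes tested, 41 (0.368%) rose and 7 (0.0629%) fell in the interferon-high cows at an adjusted p of 0.05 (edgeR's quasi-likelihood test with Benjamini-Hochberg adjustment, which gives every adjusted p below unless another tool is named). At an unadjusted p below 0.05 there were 2612 genes (23.5%), 1017 higher (9.14%) and 1595 lower (14.3%). The classes were formed from the same libraries, so the test asks whether a gene's counts went with the score. Its p sets the class difference against the spread between these cows. Genes that move with the 4 score genes were favoured by this choice of classes, so their p are a description. The 5 and 8 values did not overlap for 23 of the 41 over-expressed and 4 of the 7 under-expressed genes, and for 64 (0.575%) and 76 (0.683%) of all genes tested in each direction. The median log2 fold change of all genes was 0.01. In whole blood, fewer cells of a type and less RNA per cell cannot be told apart.

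Of the 41 over-expressed genes, 25 belonged to 6 lists of the interferon response and 16 to no list. The 6 lists held 92 gene names besides the score genes, of which 74 were named in the count tables and 72 passed the filter on low counts. Of these 72, 59 had a positive log2 fold change, 25 were called higher and 0 lower, with a median log2 fold change of 0.66. In either direction, 53 had an unadjusted p below 0.05 (23.5% of all genes tested). Among the 53, *IFNAR1*, *JAK2*, *TMEM173* and *TLR3* had negative log2 fold changes. Of all genes tested, 5679 (51.0%) had a positive log2 fold change. Antiviral effectors had the most calls, 12 of 25 tested, and sensors had 5 of 11. Calls were fewer in the signalling genes (2 of 17) and in the IFIT and IFITM families (1 of 8). Of all genes tested, 0.368% were called higher, a smaller share than in each of these lists. The median log2 fold change was 0.12 in the signalling genes. In the IFIT and IFITM families it was 0.82, with 7 of 8 genes at an unadjusted p below 0.05. The plot of fold changes by list gives the tested genes reported here with their errors.

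**Figure D1:**
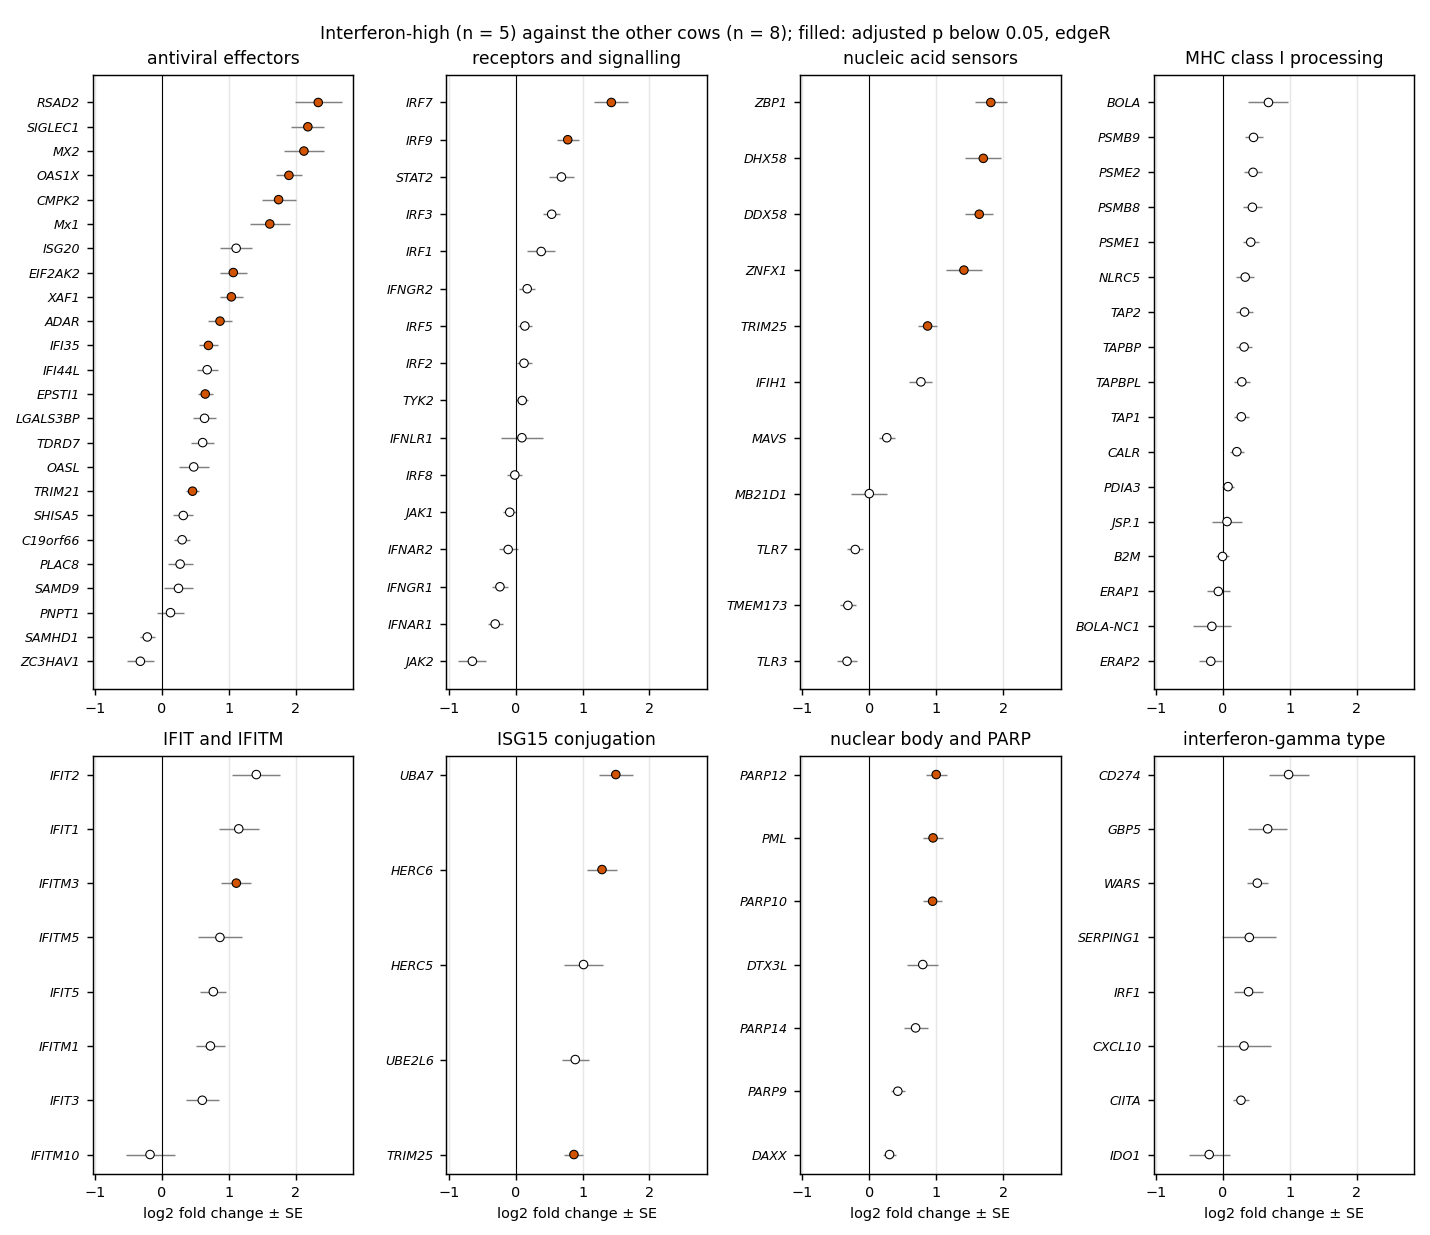
Log2 fold change with its standard error (x axis) of tested genes (y axis) in 6 lists of the interferon response and in the lists of interferon-gamma-type and MHC class I genes, 5 interferon-high cows against 8 others. Filled points have an adjusted p below 0.05. Effectors and sensors reach log2 fold changes of 2.34 and 1.82, while no gene of the interferon-gamma-type or MHC class I lists is filled.

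Interferon genes themselves were not measurable. The count tables name 5 of the 18 interferon genes listed, and none passed the filter on low counts. *IFNE* had 0 counts in every cow, which allows at most 0.272 CPM in the shallowest library. *IFNG*, the interferon of T and NK cells, and *IFNL3*, a type III interferon, had at most 8 counts in any cow. The other listed interferon genes were not analysed here.

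Receptor and kinase genes were not called. The receptor chain *IFNAR1* had 357, 381, 431, 335 and 439.9 CPM in the interferon-high cows and a lowest, median and highest value of 398, 473 and 552 CPM in the others, with a log2 fold change of -0.31 (SE 0.11, adjusted p 0.127). The kinase *JAK2* had a log2 fold change of -0.65 (SE 0.21, adjusted p 0.104). Both classes overlapped for each of these genes. Among the transcription factors, *IRF7* had 381, 231, 424, 149 and 193 CPM against 61.9, 95.7 and 185 CPM (lowest, median and highest of the 8 others). It was over-expressed 2.7-fold (log2 fold change 1.43, SE 0.26, adjusted p 0.0164), and its only overlap came from replicate 13 of the low group, below replicate 2 of the high group. *IRF9*, the DNA-binding partner of STAT2, had 742, 536, 854, 554 and 716 CPM against 236, 389.9 and 548 CPM and was also over-expressed (log2 fold change 0.78, SE 0.17, adjusted p 0.0476). Replicate 2 of the high group, at 548 CPM, again lay within the interferon-high range. *STAT2* missed the threshold, with a log2 fold change of 0.68 (adjusted p 0.0849). *IRF3*, which carries the signal of the sensors to the nucleus, had 444, 362, 380.1, 375 and 383 CPM against 169.6, 274 and 314 CPM. Its classes did not overlap, yet its log2 fold change of 0.54 missed the threshold (adjusted p 0.0594). The call of *IRF7* was lost in 3 of 24 alternative fits and that of *IRF9* in 16.

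Cytosolic sensors of viral nucleic acid were among the genes that rose most. *DDX58*, which encodes the RNA helicase RIG-I (on chromosome 8 from 11428373 to 11472719 of UMD3.1), had 197, 140.4, 264, 93.1 and 125 CPM in the interferon-high cows against 37.2, 52.6 and 71.9 CPM. It was over-expressed 3.12-fold (log2 fold change 1.64, SE 0.21, adjusted p 0.00123), and every interferon-high cow was above every other cow. *DHX58*, the related helicase LGP2 (on chromosome 19 from 42877797 to 42888179), had 454, 224, 565, 171 and 214 CPM against 62.2, 95.4 and 165 CPM (log2 fold change 1.70, SE 0.27, adjusted p 0.00706). The classes did not overlap, although replicate 2 of the high group, at 165 CPM, was close to the lowest interferon-high cow. *ZBP1*, a sensor of Z-form nucleic acid (on chromosome 13 from 59099339 to 59109190), had 402, 256, 291, 156 and 186 CPM against 31.9, 72.1 and 105 CPM (log2 fold change 1.82, SE 0.24, adjusted p 0.00168). Here replicate 5 of the high group was highest, and again no value overlapped. *ZNFX1*, an RNA helicase (log2 fold change 1.41, SE 0.27, adjusted p 0.0242), and *TRIM25*, a ubiquitin ligase that acts on RIG-I (log2 fold change 0.87, SE 0.14, adjusted p 0.00758), were over-expressed with overlapping classes. *IFIH1*, the helicase MDA5, had a log2 fold change of 0.77 and missed the threshold (adjusted p 0.0594). The remaining tested sensors, *MB21D1*, *TMEM173*, *MAVS*, *TLR3* and *TLR7*, were not called. The calls of *DDX58*, *DHX58* and *ZBP1* held in every alternative but the fit to the 6 cows of the low group, whereas that of *ZNFX1* was lost in 12 of 24.

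The largest changes of the response were in antiviral effectors. *RSAD2*, which encodes viperin (on chromosome 11 from 90012630 to 90029927), had 87.9, 60.8, 123, 21.8 and 25 CPM in the interferon-high cows against 7.88, 13.8 and 17.7 CPM. It was over-expressed 5.05-fold (log2 fold change 2.34, SE 0.35, adjusted p 0.00478). Replicates 13 and 10 of the low group stood just above the other cows, and the 3 cows with the highest scores stood far above them. *CMPK2*, a nucleotide kinase near *RSAD2* on chromosome 11, had 70, 42.5, 49.5, 32.2 and 18.7 CPM against 8.36, 11.5 and 20.1 CPM (log2 fold change 1.74, SE 0.25, adjusted p 0.00326). Replicate 10 of the low group was below replicate 11 of the low group, and no other pair overlapped. *SIGLEC1*, a sialic acid receptor of monocytes and macrophages (on chromosome 13 from 51945279 to 51962376), had 20.6, 21.5, 21.9, 12.1 and 8.83 CPM against 2.4, 3.71 and 5.81 CPM (log2 fold change 2.18, SE 0.24, adjusted p 0.000542). The 3 highest cows were nearly level, and the classes did not overlap.

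*OAS1X*, an oligoadenylate synthetase, an enzyme that senses double-stranded RNA (on chromosome 17 from 63654698 to 63678163), had the smallest p of all genes tested. It had 227, 304, 309.9, 125 and 261 CPM against 44.6, 68.1 and 92.1 CPM and was over-expressed 3.73-fold (log2 fold change 1.90, SE 0.19, adjusted p 0.000253). Each interferon-high cow was above each other cow, and among the others replicate 4 of the high group was highest. Reads shared with near-identical oligoadenylate synthetase copies may have been split or dropped in the counting, so the level of this gene is uncertain.

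The Mx genes encode GTPases that trap viral particles. *MX2* (on chromosome 1 from 143119272 to 143155057) had 295, 211, 466, 102 and 168 CPM against 32.7, 51.6 and 84.8 CPM (log2 fold change 2.12, SE 0.30, adjusted p 0.00309), with no overlap. *Mx1* (on chromosome 1 from 143176083 to 143204865) had 921, 1420.0, 2254, 736 and 578 CPM against 223, 358 and 602 CPM (log2 fold change 1.61, SE 0.30, adjusted p 0.0198). For both genes replicate 8 of the low group was highest. In *Mx1* replicate 10 of the low group fell just below replicate 2 of the high group, the only overlap. The call of *MX2* was lost only in the fit to cows of the low group, and that of *Mx1* in 7 of 24 alternatives.

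**Figure D2:**
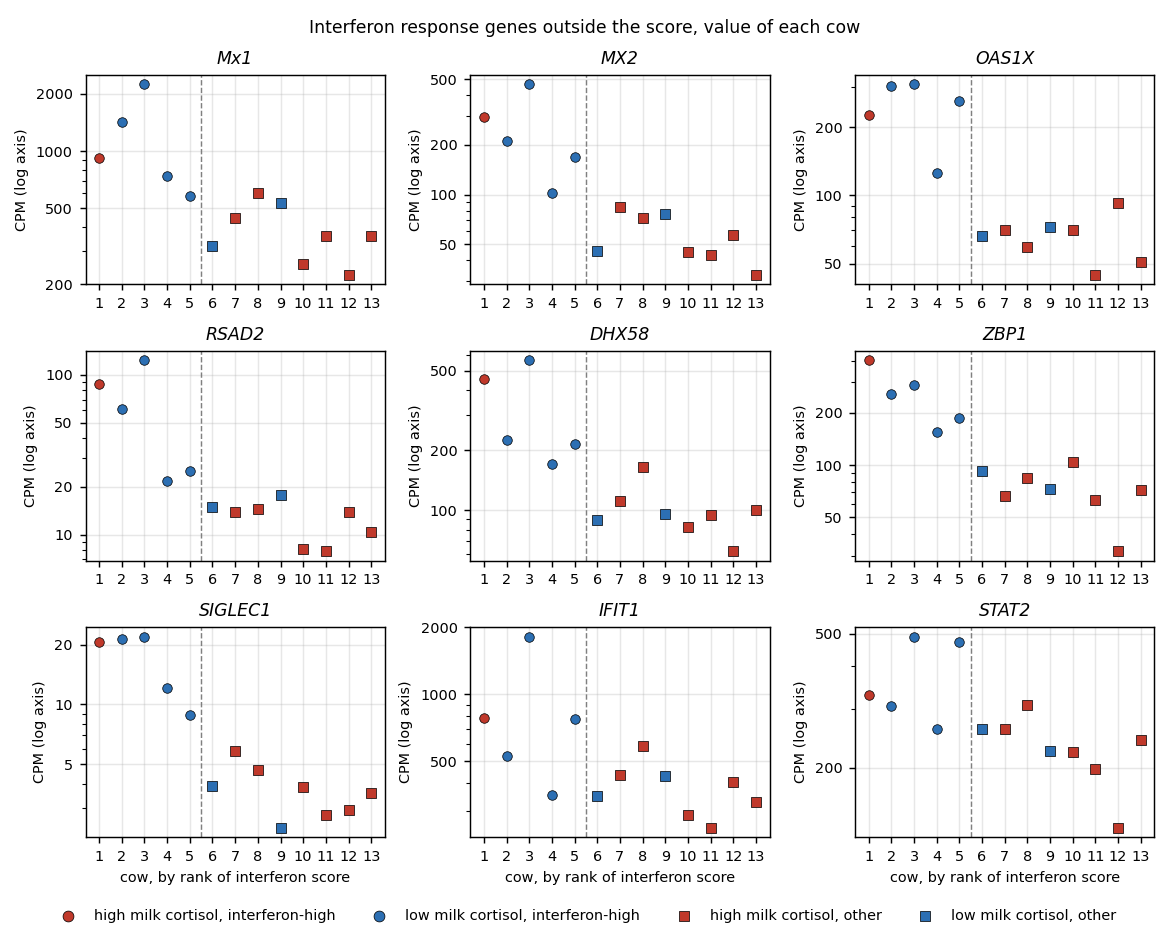
CPM on a log axis (y axis) of 9 genes outside the score in each of 13 cows, ordered by rank of the interferon score (x axis), with the dashed line at the threshold. Circles are the 5 interferon-high cows and squares the 8 others, red for the high and blue for the low milk cortisol label, and for 6 of the genes (*MX2*, *OAS1X*, *RSAD2*, *DHX58*, *ZBP1* and *SIGLEC1*) every circle is above every square.

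The other called effectors rose less. *EIF2AK2*, the kinase PKR that stops translation, had 111, 113, 201, 66.2 and 91.4 CPM against 41.1, 55.2 and 69.6 CPM (log2 fold change 1.07, SE 0.20, adjusted p 0.0186). *ADAR*, which edits double-stranded RNA, had 353, 251, 499, 186 and 253 CPM against 142, 165 and 201 CPM (log2 fold change 0.87, SE 0.18, adjusted p 0.0385). In both genes the single overlapping interferon-high cow was replicate 13 of the low group. *XAF1*, a promoter of apoptosis, had 435, 339, 415, 232 and 326 CPM against 96.5, 177 and 221 CPM with no overlap (log2 fold change 1.04, SE 0.17, adjusted p 0.00758). *IFI35*, *EPSTI1* and *TRIM21*, a cytosolic antibody receptor, were over-expressed with log2 fold changes of 0.69, 0.65 and 0.46. Among effectors that were not called, *ISG20*, an RNA exonuclease, had a log2 fold change of 1.11 (adjusted p 0.0531) and *IFI44L* one of 0.68 (adjusted p 0.0659). *LGALS3BP* and *TDRD7* had log2 fold changes of 0.64 and 0.61 (adjusted p 0.0849 and 0.0883). *SAMHD1*, which depletes nucleotides, had 427, 407, 405, 450.1 and 409.9 CPM against 396, 471 and 626 CPM and was not called. *PLSCR1* and *CH25H* were near 0 in every cow and were not tested. The call of *ADAR* was lost in 15 of 24 alternatives and that of *TRIM21* in 18, against 2 for *XAF1* and 4 for *EPSTI1*.

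The IFIT proteins bind viral RNA and the IFITM proteins block entry at membranes. *IFITM3* had 823, 711, 632, 417 and 421 CPM against 125, 279 and 426 CPM and was the only called gene of these families (log2 fold change 1.11, SE 0.23, adjusted p 0.0385). Replicates 13 and 10 of the low group were level with replicate 2 of the high group. *IFIT1* had 780.3, 527, 1813, 354 and 776 CPM against 253, 377 and 584 CPM, with a log2 fold change of 1.15 (SE 0.30, adjusted p 0.0849). *IFIT2* had a larger fold change of 1.41 with a larger error (SE 0.36, adjusted p 0.0849). Replicate 8 of the low group had more than any other cow for both, and replicates 12 and 13 of the low group lay inside the range of the others. *IFIT5*, *IFITM1* and *IFIT3* had log2 fold changes of 0.77, 0.72 and 0.60 (adjusted p 0.0799, 0.091 and 0.165). Reads may be shared between the near-identical IFITM genes. The call of *IFITM3* was lost in 15 of 24 alternatives (adjusted p up to 0.182).

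ISG15 is attached to proteins by an enzyme chain. Of the 5 genes of this list that were tested, 3 were over-expressed, beside 0.368% of all genes tested. *UBA7*, the activating enzyme, had 375, 284, 669.8, 184 and 414 CPM against 73.1, 139 and 187 CPM (log2 fold change 1.50, SE 0.26, adjusted p 0.0125). Replicate 13 of the low group, at 184 CPM, was the only interferon-high cow not above all others. *HERC6*, a ligase, had 304, 249, 551, 157 and 248 CPM against 89.1, 120.1 and 160.5 CPM (log2 fold change 1.29, SE 0.23, adjusted p 0.015), with the same single overlap. *TRIM25*, counted above among the sensors, was the third. *UBE2L6*, the conjugating enzyme, and *HERC5*, a ligase, had log2 fold changes of 0.89 and 1.01 and missed the threshold (adjusted p 0.0594 and 0.0883). The call of *UBA7* was lost in 3 and that of *HERC6* in 4 of 24 alternatives.

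*PML*, the scaffold of nuclear bodies (on chromosome 21 from 34970953 to 35025051), had 317, 223, 352, 209 and 193 CPM against 95.9, 139 and 151 CPM (log2 fold change 0.95, SE 0.14, adjusted p 0.00477). *PARP10* and *PARP12* encode enzymes that attach single ADP-ribose units, and they had 356, 259.5, 375, 215 and 243 CPM against 105, 151 and 189 CPM and 409, 312, 557, 226 and 307 CPM against 166, 174 and 206 CPM. All 3 were over-expressed without overlap, *PARP10* with a log2 fold change of 0.95 (adjusted p 0.00543) and *PARP12* with 1.00 (adjusted p 0.00632), and their calls were lost only in the fit to cows of the low group. *PARP9*, *PARP14* and *DTX3L*, whose proteins act together, had log2 fold changes of 0.43, 0.69 and 0.80 and were not called (adjusted p 0.0799, 0.0849 and 0.0883).

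No called gene was found among feedback inhibitors (0 of 11 tested, median log2 fold change 0.13), interferon-gamma-type targets (0 of 8, median 0.39), MHC class I processing (0 of 17, median 0.28) or MHC class II (0 of 3, median 0.32). These lists held 13, 17, 19 and 12 gene names and were measured in part. Members such as *USP18* (feedback), *GBP2* (gamma-type) and *BOLA-DRA* (class II) were not analysed here. At an unadjusted p below 0.05 these lists held 3 of 11, 4 of 8, 10 of 17 and 2 of 3 genes, beside 23.5% of all genes tested, so the share of the feedback inhibitors was near that of all genes. The median of all genes was 0.01, and 0.431% of them were called in either direction. *SOCS2*, an inhibitor of cytokine receptors, had a log2 fold change of -0.63 (adjusted p 0.113). Among gamma-type targets, *CD274*, which encodes PD-L1, had 19.6, 13.8, 22.6, 9.86 and 46.7 CPM against 6.73, 11.4 and 16.6 CPM, with the highest value in replicate 10 of the low group (log2 fold change 0.98, adjusted p 0.096). *CXCL9*, *CXCL10* and *CXCL11* are chemokines of this group, and *CXCL10* had 12.8, 10, 10.3, 5.05 and 30.9 CPM against 5.75, 8.73 and 28 CPM while *CXCL9* was near 0 and *CXCL11* had 0 counts in every cow. The immunoproteasome subunits *PSMB8* and *PSMB9* had log2 fold changes of 0.44 and 0.46 (adjusted p 0.099 and 0.091), and the activator subunits *PSME1* and *PSME2* 0.41 and 0.45 (adjusted p 0.0883 and 0.092). *B2M*, the light chain of class I molecules, had 7345, 7591, 6844, 7264 and 8442 CPM against 6933, 7535 and 7899 CPM. The list of inflammatory cytokine genes (0 of 13 called, median 0.10) had 0 genes at an unadjusted p below 0.05, and the glucocorticoid response list (0 of 15 called, median -0.096) had 2.

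The 16 over-expressed genes outside all lists were of varied kinds. *MOV10*, an RNA helicase that restricts retroelements, had 282, 216, 292, 223 and 224 CPM against 108, 146 and 184 CPM (log2 fold change 0.74, SE 0.12, adjusted p 0.00754). *CMTR1*, which methylates the mRNA cap, had 279.9, 191, 339, 171 and 190.1 CPM against 119, 125 and 167 CPM (log2 fold change 0.81, SE 0.15, adjusted p 0.0186). Neither overlapped between the classes. Smaller changes without overlap were found for the ubiquitin ligases *TRIM26* and *RNF114*, with 92.5, 80, 111, 84.1 and 100.1 CPM against 62.8, 66.3 and 69.9 CPM for *TRIM26* (log2 fold change 0.50, SE 0.09, adjusted p 0.0116) and a log2 fold change of 0.52 (SE 0.10, adjusted p 0.0297) for *RNF114*. *FOXS1*, a forkhead transcription factor (on chromosome 13 from 61924322 to 61925629), had 82.6, 51.7, 72.9, 38.5 and 53.5 CPM against 14, 21.4 and 28.8 CPM (log2 fold change 1.48, SE 0.19, adjusted p 0.00123). *STOML1*, a stomatin-like membrane protein, had 66.4, 46, 38, 43.3 and 45.1 CPM against 12.2, 19.6 and 23.5 CPM (log2 fold change 1.37, SE 0.16, adjusted p 0.000951). These 2 genes also kept the classes apart in every cow. *TRANK1* (log2 fold change 1.21, SE 0.21, adjusted p 0.0133), *PARM1* (log2 fold change 1.11, SE 0.21, adjusted p 0.0242), *SERTAD1*, a cell cycle regulator (log2 fold change 0.77, SE 0.14, adjusted p 0.015), and *ORAI2*, a calcium channel subunit (log2 fold change 0.96, SE 0.20, adjusted p 0.0465), were over-expressed as well. Of these, *SERTAD1* alone had no overlap between classes. The calls of *FOXS1*, *STOML1* and *MOV10* held in every alternative but the fit to cows of the low group, while those of *ORAI2* and *RNF114* were lost in 13 and 11 of 24.

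*FAM3B* is described with its neighbour *MX2*, and the other 5 over-expressed genes are named here after their values were seen. *RHCG*, an ammonium transporter, had the largest log2 fold change of all called genes, 2.48 (SE 0.51, adjusted p 0.0385), at 1.51, 1.8, 0.46, 2.34 and 1.84 CPM against 0, 0.232 and 0.657 CPM. It rests on at most 39 counts in a cow, and the other cows had 0 to 14. *RHCG* thus passed the filter on low counts mainly through the interferon-high cows, and its fold change is given as a description. Its call was lost in 16 of 21 alternatives that tested it. *CBLN3*, *ADGRB2* and *AGRN* were also low, with highest values of 7.74, 3.46 and 12.9 CPM. *GRINA* was the fifth (log2 fold change 0.51, SE 0.11, adjusted p 0.0469), and it lost its call in 18 of 24 alternatives.

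**Figure D3:**
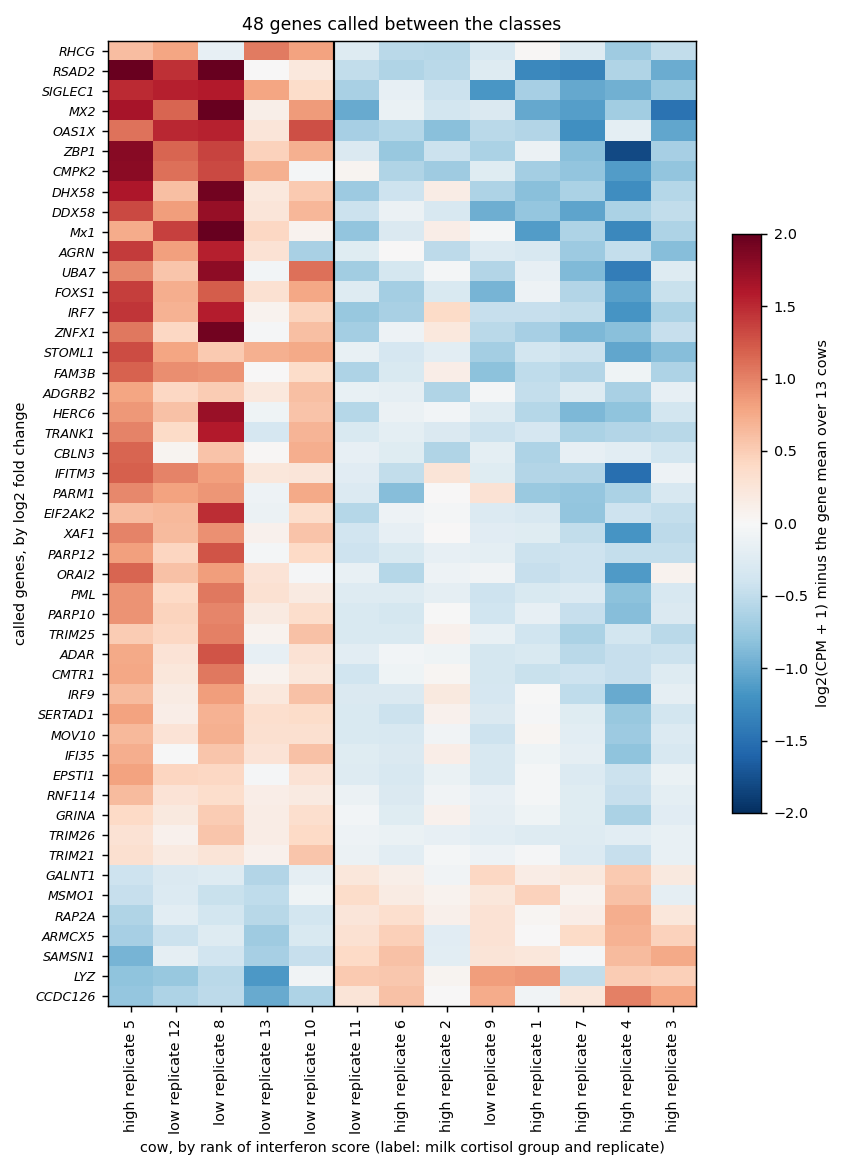
Expression of the 48 called genes (rows, by log2 fold change) in 13 cows (columns, by rank of the interferon score), as log2(CPM + 1) minus the mean of the gene over all cows, red above and blue below, with values beyond 2 in either direction drawn as 2. The line divides the 5 interferon-high cows from the 8 others, and replicate 13 of the low group is the palest column of the class while replicates 5 (high) and 8 (low) are the darkest.

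The 7 under-expressed genes held 1 gene of a list, *LYZ*, which encodes lysozyme and stood among the monocyte markers. *LYZ* had 2133, 2198, 2568, 1670.2 and 3523 CPM in the interferon-high cows against 2647, 5317 and 6795 CPM (log2 fold change -1.09, SE 0.22, adjusted p 0.0307). Replicate 10 of the low group was within the range of the others, and replicate 7 of the high group, at 2647 CPM, was within that of the interferon-high cows. *CCDC126* fell most, at 0.865, 1.08, 1.23, 0.601 and 1.08 CPM against 2.06, 3.3 and 5.43 CPM (log2 fold change -1.83, SE 0.30, adjusted p 0.00758), on 10 to 85 counts a cow and without overlap. *SAMSN1*, an adaptor that restrains B cell activation, had 64.5, 109, 94.7, 77.6 and 89.2 CPM against 107, 156 and 209.5 CPM (log2 fold change -0.87, SE 0.16, adjusted p 0.0202). *ARMCX5* (log2 fold change -0.81, SE 0.15, adjusted p 0.0183), *RAP2A*, a small GTPase (log2 fold change -0.78, SE 0.16, adjusted p 0.041), and *GALNT1*, which starts mucin-type glycosylation (log2 fold change -0.57, SE 0.11, adjusted p 0.0186), fell without overlap. *MSMO1*, an enzyme of cholesterol synthesis, fell with overlap (log2 fold change -0.59, SE 0.12, adjusted p 0.0461). The call of *CCDC126* was lost only in the fit to cows of the low group, whereas *LYZ*, *MSMO1* and *RAP2A* lost theirs in 11, 12 and 15 of 24 alternatives.

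Monocyte markers other than *LYZ* were not called. The summed level of the 10 monocyte genes was 3219.5 to 5167 CPM in the interferon-high cows and 3600.2 to 8275 CPM in the other cows, with *LYZ* included. *CD14*, the lipopolysaccharide co-receptor, had 108, 91.8, 121, 76 and 122 CPM against 52.1, 123 and 174 CPM, and *CSF1R*, the receptor that defines the lineage, had 325, 363, 455, 389 and 387 CPM against 202, 356 and 451 CPM. The classes overlapped widely for both. Of the 10 genes, 4 had a positive log2 fold change (51.0% of all genes tested). An unadjusted p below 0.05 was found for 4 (23.5% of all genes tested), *LYZ*, *CLEC7A* and *VCAN* with negative and *CD68* with positive values. *CLEC7A*, the receptor dectin-1, had a log2 fold change of -1.04 (adjusted p 0.115) at no more than 17.8 CPM in any cow. *VCAN* had one of -0.74 (adjusted p 0.11), *CD163* one of -0.52 (adjusted p 0.231) and *CD68* one of 0.54 (adjusted p 0.1). The part of monocyte number in the value of *LYZ* was not tested.

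No other marker list of blood cells held a called gene. Of all genes tested, 0.431% were called in either direction, so lists of this length would seldom hold one. An unadjusted p below 0.05 was found for 1 of 11 neutrophil, 2 of 17 T cell and 1 of 12 B cell genes. It was also found for 3 of 12 cytotoxic and NK cell genes and 1 of 5 plasmacytoid dendritic cell genes (23.5% of all genes tested). Summed levels were 6284 to 10632 CPM in the interferon-high cows and 5027 to 9960.0 CPM in the other cows for 11 neutrophil genes, and 4729 to 7219.8 CPM in the interferon-high cows and 4596 to 6141 CPM in the other cows for 17 T cell genes. B cell genes (12) summed to 2591 to 4308 CPM in the interferon-high cows and 2177 to 3886 CPM in the other cows, and cytotoxic and NK cell genes (12) to 584 to 845 CPM in the interferon-high cows and 498 to 868 CPM in the other cows. The list of plasmacytoid dendritic cells, a main producer of type I interferon, held 5 measured genes with 458 to 656 CPM in the interferon-high cows and 332 to 525 CPM in the other cows, and 0 of 5 were called. Erythroid genes summed to 172 to 2857 CPM in the interferon-high cows and 443 to 8054 CPM in the other cows. The log2 ratio of the neutrophil to the T cell sum was 0.0849 to 1.06 in the interferon-high cows and -0.208 to 0.995 in the others. With this ratio as a covariate all 48 calls were kept and 168 genes were called higher and 515 lower, 40 of the former in the interferon lists. With the log2 haemoglobin share as a covariate 17 of the 25 calls in the interferon lists were kept. The part of cell composition in these results was not tested otherwise.

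**Figure D4:**
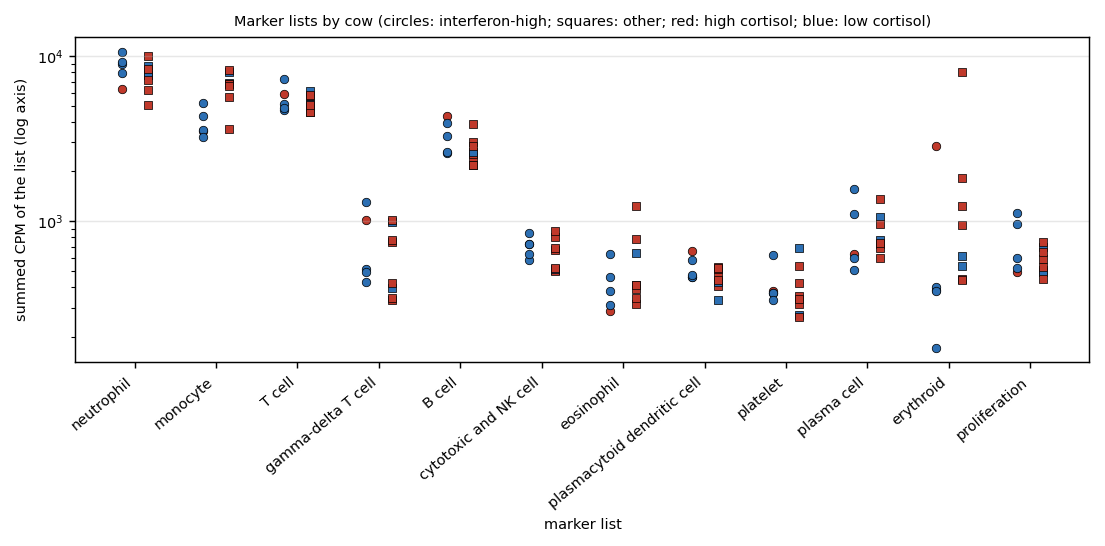
Summed CPM on a log axis (y axis) of 12 marker lists (x axis) in each cow, circles for the 5 interferon-high cows and squares for the 8 others, red for the high and blue for the low milk cortisol label. The classes overlap in every list, and the monocyte sum is 3219.5 to 5167 CPM in the interferon-high cows against 3600.2 to 8275 CPM in the others.

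The genes whose log2 CPM followed the score most closely over the 13 cows were *SIGLEC1* (Pearson r = 0.965), *CMPK2* (0.950), *STOML1* (0.936), *ZBP1* (0.935) and *DDX58* (0.923). The next were *RSAD2* (0.919), *RNF114* (0.914), *FOXS1* (0.913), *PML* (0.911) and *MX2* (0.909). These values describe likeness over the same cows that formed the classes, and the classes themselves spread the points along the score. Of the 10 genes, 7 belong to the interferon lists, and *STOML1*, *RNF114* and *FOXS1* do not.

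The rank of the cows differed from gene to gene. Replicate 8 of the low group, at rank 3 of the score, had the highest value of all cows for 24 of the 41 over-expressed genes, and replicate 5 of the high group for 15. Replicate 12 of the low group, at rank 2, was highest for 0. Replicate 13 of the low group had the lowest value of the class for 28 of the 41. Among the other 8 cows, replicate 2 of the high group was highest for 19 genes, *IRF7*, *DHX58* and *IRF9* among them, and replicate 4 of the high group was lowest for 24.

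Within the cortisol labels the called genes kept their direction. Replicate 5, the only interferon-high cow of the high group, lay above the other 6 cows of its label for 41 of 41 over-expressed genes and below them for 7 of 7 under-expressed genes, which was so for 18.8% and 19.3% of all genes tested. In the low group, the 4 interferon-high cows and the other 2 did not overlap for 37 of 41 and 7 of 7 genes, the exceptions being *AGRN*, *CMPK2*, *PARM1* and *TRANK1*, beside 14.9% and 16.6% of all genes. The genes were called with these same cows, which raises such counts, and nothing is read from them. The fit to the 6 cows of the low group alone called 0 genes (edgeR, smallest adjusted p 0.157, with 1904 genes at an unadjusted p below 0.05), and all 41 over-expressed genes had positive fold changes in it. With the cortisol label as a covariate 23 genes were called higher and 12 lower, and 14 of the 25 calls in the interferon lists were kept. The 11 lost ones were *ADAR*, *EIF2AK2*, *HERC6*, *IFI35*, *IFITM3*, *IRF9*, *Mx1*, *TRIM21*, *TRIM25*, *UBA7* and *ZNFX1*. Adjusted p of all calls lost with this covariate lay between 0.0518 and 0.0828.

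The number of calls depended on single cows. Without replicate 2 of the high group, 212 genes were called higher and 762 lower. The numbers were 19 and 1 when replicate 5 of the high group was dropped, and 20 and 5 for replicate 8 of the low group. Dropping replicate 3 of the high group left 24 genes called higher. Calls in the 6 interferon lists numbered 42, 15, 15 and 17 in these fits, against 25 with all cows, and the median log2 fold change of the lists was between 0.52 and 0.73 with any 1 cow left out. The number called lower was 15 without replicate 4, 3 without replicate 6 and 12 without replicate 7 of the high group, and 4, 4, 23 and 4 when replicates 9, 11, 12 and 13 of the low group were dropped in turn. The 15 genes called in every alternative but the fit to cows of the low group were *CCDC126*, *CMPK2*, *DDX58*, *DHX58*, *FOXS1*, *MOV10*, *MX2*, *OAS1X*, *PARP10*, *PARP12*, *PML*, *RSAD2*, *SIGLEC1*, *STOML1* and *ZBP1*.

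Several called genes outside the lists lie beside interferon genes in the genome. Within 5000 bases of the 29 interferon genes (the 25 called genes and the 4 of the score), 18 other genes were tested and 4 were over-expressed, beside 0.368% of all genes tested. The distance was chosen after the data were seen. The 29 genes were themselves chosen as high in these same cows, so counts of their neighbours are a description. *AGRN* (on chromosome 16 from 52674207 to 52712338) lies 2289 bases downstream of *ISG15* on the same strand and had 11.6, 7.39, 12.9, 4.81 and 2.03 CPM against 1.63, 2.62 and 3.79 CPM (log2 fold change 1.58, SE 0.34, adjusted p 0.0476). Replicate 10 of the low group lay among the other cows for this gene. *FAM3B*, a cytokine-like gene (on chromosome 1 from 143048262 to 143115094), lies 4178 bases upstream of *MX2* on the same strand and had 12.5, 10.5, 10.2, 5.05 and 6.74 CPM against 2.4, 3.12 and 5.56 CPM (log2 fold change 1.33, SE 0.24, adjusted p 0.0167). Only replicate 13 of the low group overlapped, with replicate 2 of the high group. *STOML1* (on chromosome 21 from 35027786 to 35036053) lies 2735 bases from *PML* on the opposite strand, and *GRINA* (on chromosome 14 from 2018559 to 2021709) 3004 bases from *PARP10* on the opposite strand. Of 24 alternatives, *GRINA* lost its call in 18, *AGRN* in 16, *FAM3B* in 4 and *STOML1* in 1. Of the 18 neighbours, 15 had a positive log2 fold change (51.0% of all genes), 9 had an unadjusted p below 0.05 (23.5% of all genes), and the median was 0.39 (0.01 over all genes). *REC8*, 4539 bases from *IRF9*, missed the threshold with a log2 fold change of 1.12 (SE 0.26, adjusted p 0.066). The header of the count tables sets no strand option, so reads of a gene and of an overlapping transcript on the other strand cannot be told apart. The part of the neighbouring interferon gene in these counts was not tested.

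**Figure D5:**
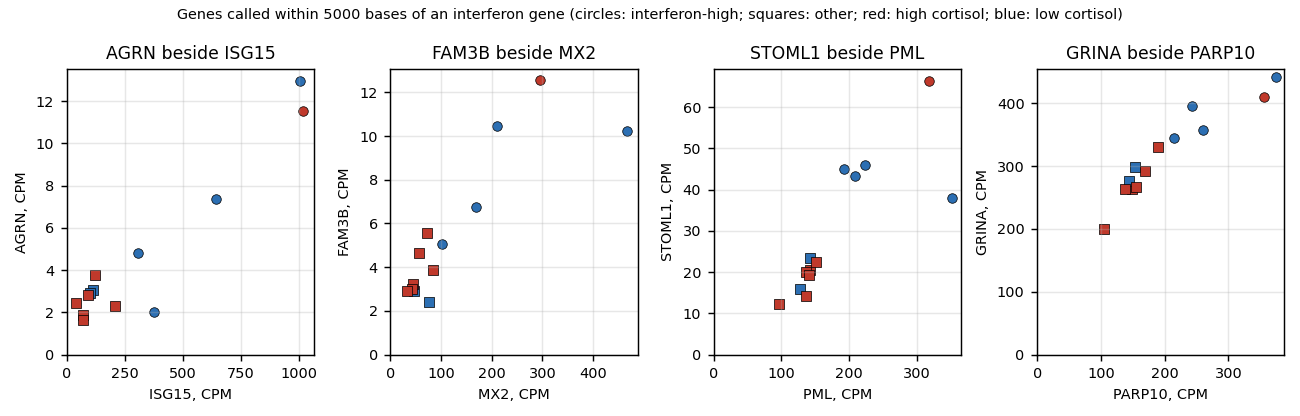
CPM of 4 called genes (y axes) against CPM of the interferon gene within 5000 bases of each (x axes), 1 point per cow, circles for the 5 interferon-high cows and squares for the 8 others, red for the high and blue for the low milk cortisol label. *GRINA* and *STOML1* keep the classes apart, at 345 to 442 against 200 to 329 CPM and at 38.0 to 66.4 against 12.2 to 23.5 CPM.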

How the data were processed

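Gene counts of whole blood RNA from 13 cows were analysed. The authors deposited raw counts of reads per gene name, not normalized. Per the file headers, exons were summed by gene name with featureCounts version 1.4.6-p3 on Ensembl 88 models of UMD3.1, with no option for strand, while the submitters' processing notes name STAR 2.7.3, Subread 1.6.5 and ARS-UCD1.2. Positions are on UMD3.1. The alignment named in a header carries another animal number than the table does, and its folder name holds the word goat, whereas the labels give cattle. Cortisol groups are from the sample titles. The unnamed entry (13.9% to 16.7% of counts) was left out. Libraries with identical counts were looked for, and 0 pairs were found.

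Classes came from the score described above, and the same 5 cows were found with TMM-scaled CPM. CPM of single genes are TMM-scaled, and log2 CPM has a prior count of 2. The classes were compared with edgeR 4.0.16 (quasi-likelihood, robust, R 4.3.3) without covariates. Genes entered by filterByExpr (at least 10 counts, 15 in total), and p were adjusted by Benjamini-Hochberg. Each SE was derived from the fold change and the F statistic. Alternatives were RLE factors, DESeq2 1.42.0, limma-voom (limma 3.58.1), other filters, 3 covariates, the score as a continuous term, cows of the low group alone and each cow left out. Leaving out both cows nearest the threshold was added after seeing the data. Members and gene lists were chosen with earlier results of these data known. Some genes of the lists are counted but not reported here by name. Genes named are otherwise the measured members of the interferon lists, and outside all lists the 10 called genes with the largest change in each direction among those with a mean of at least 5 CPM, the 5 with the smallest p in each direction, called markers of cell types, and the 10 genes most like the score. No promoter or other sequence was used here.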

Additional observations from a re-analysis of the deposited data

Results flagged for a closer look

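In each class the highest and lowest cow was compared with its nearest neighbour, over 76 measures and thus 152 groups of cows (1 measure in 1 class), and 12 gaps were wide against the range of the class. Chance marks about 1 in 20 groups, or 7.6 of these, if the groups are separate. The erythroid list includes the haemoglobin genes, so its sum and the haemoglobin share are not separate measures.

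Replicate 5 of the high group had the highest erythroid sum of the interferon-high cows, 2857 CPM against 398 CPM in the next cow, and the highest haemoglobin share, 0.262% against 0.0300%. Replicate 7 of the high group had the highest erythroid sum of the other cows, 8054 CPM against 1828 CPM, and the highest haemoglobin share, 0.815% against 0.166%. The same cow had the lowest log2 ratio of the neutrophil to the T cell sum, -0.208 against 0.430 in the next. Replicate 8 of the low group, which had the highest value for 24 of the 41 over-expressed genes, had the highest platelet sum of the interferon-high cows, 622 CPM against 379 CPM.

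Replicate 2 of the high group stood above the other 7 cows outside the class for *DHX58*, at 165 CPM against 111 CPM in the next, and for *IRF7*, at 185 CPM against 103 CPM. Replicate 4 of the high group, which had the lowest value outside the class for 24 over-expressed genes, was lowest for *PML*, at 95.9 CPM against 127 CPM in the next, and highest for *RAP2A*, at 13.5 CPM against 10.0 CPM. Replicate 13 of the low group was lowest of the interferon-high cows for *PARM1*, at 19.7 CPM against 36.7 CPM. Replicate 5 of the high group was highest of the class for *STOML1*, at 66.4 CPM against 46.0 CPM. The cause of these values was not tested.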

How the results depend on the processing

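All 48 called genes kept their direction in every alternative in which they were tested. The alternatives used the same cows that called these genes, which favours a kept direction. The numbers called higher and lower, 41 and 7, became 222 and 583 of 14364 genes with DESeq2, 23 and 12 with the cortisol label as a covariate, 168 and 515 with the log2 neutrophil to T cell ratio as a covariate, 0 and 0 in the 6 cows of the low group (1904 genes at an unadjusted p below 0.05) and 20 and 2 without both cows nearest the threshold. With limma-voom 11 genes were called lower. Calls in the 6 interferon lists, 25, became 42, 14, 40, 0 and 13 in the same 5 alternatives. With 1 cow left out, 19 to 212 genes were called higher, 1 to 762 lower and 15 to 42 in the interferon lists, and the median log2 fold change of these lists lay between 0.52 and 0.73. The cause of these differences was not tested, except that the low group and the last alternative hold fewer cows. RLE factors, both other filters, the haemoglobin covariate and the continuous score gave 31 to 52 genes called higher and 7 to 10 lower.

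No paired analysis was possible because the cortisol groups share no replicate numbers and the interferon classes carry none. The interaction of class and cortisol label, with its limma-voom form, and the fit to cows of the high group were not run, since that group held 1 interferon-high cow. The search for response elements in promoters was not run. With 3 counts at up to 0.272 CPM, changes in genes such as *IFNG* were not detectable.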

Other observations

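Of 15 proliferation genes tested 0 were called by edgeR, beside 0.431% of all genes tested. A positive log2 fold change was found for 14 (51.0% of all genes tested), with a median of 0.46, and 4 of 15 had an unadjusted p below 0.05, near the 23.5% of all genes. Their summed level was 492 to 1114 CPM in the interferon-high cows and 444 to 752 CPM in the other cows. *MKI67*, a marker of dividing cells, had 43.0, 128, 51.0, 136 and 67.4 CPM in the interferon-high cows, in the order of their scores, and a lowest, median and highest value of 34.5, 57.4 and 83.7 CPM in the others. Replicates 12 and 13 of the low group stood above all other cows, and the other 3 interferon-high cows lay among them. The replication helicase gene *MCM3* had a log2 fold change of 0.46 (edgeR, adjusted p 0.112).

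Of 5 eosinophil genes tested 0 were called by edgeR, beside 0.431% of all genes tested, and the median log2 fold change was -0.69. An unadjusted p below 0.05 was found for 2 of the 5, beside 23.5% of all genes tested. *ADGRE1* had a positive value of 0.58 (adjusted p 0.245), and the other 4 were negative, from -0.15 to -0.85. *CCR3*, the eotaxin receptor, had 94.3, 58.6, 124, 70.9 and 86.2 CPM in the interferon-high cows and a lowest, median and highest value of 74.6, 114 and 300 CPM in the others. The classes overlapped, and the highest value was in replicate 3 of the high group.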
